A study of Mus musculus with 18 samples.

Results

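Genes of the smooth muscle contractile apparatus were followed across 18 libraries of mouse prostate RNA. The set held 10 of the 55469 genes in the deposited tables: Acta2, Actg2, Myh11, Tagln, Cnn1, Smtn, Lmod1, Synpo2, Des and Myocd. They were found by matching the Ensembl gene ID of each row to its symbol, and all 10 were present in each of the 4 tables. The libraries came from the pooled ventral and lateral lobes of male mice of the strain labelled C56NL/6N, and every mouse carried 1 copy of TRAMP, the SV40 T antigens under the probasin promoter, which gives prostate tumours. WT-TRAMP mice had wild-type Elac2, the gene of a nuclease that trims transfer RNA precursors. KO-TRAMP mice were homozygous for a floxed Elac2 allele from which Cre under the probasin promoter (Pb-Cre) removes 1 exon in prostate epithelium, so that the knockout is not aimed at smooth muscle. A537T-TRAMP mice were homozygous in the whole body for a threonine in place of alanine in ELAC2, so their muscle cells carried the change too. Lobes of 3 mice were taken for each line at 10 weeks of age and of 3 more at 30 weeks, and each mutant line was set against WT-TRAMP of its age. With 3 mice a group, the p-values measure the spread between these mice.

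Smooth muscle lies in the stroma around the prostatic glands, where its contraction expels secretion. Force comes from a myosin heavy chain (Myh11) pulling on smooth muscle actins (Acta2 and Actg2), with calponin, transgelin and smoothelin bound along the thin filament and desmin filaments tying the apparatus together. Myocardin, encoded by Myocd, is a coactivator that joins serum response factor (SRF) on a DNA element named the CArG box and switches on most of these genes. The same genes also mark the muscular wall of the seminal vesicle, the bladder and blood vessels, so their level in a dissected prostate lobe depends on how much of each tissue the piece held. In bulk RNA, fewer cells of a type and less RNA per cell cannot be told apart.

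The members lie on 7 chromosomes of GRCm38 in the GENCODE annotation. Lmod1 (chr1:135324807-135368065), Des (chr1:75360329-75368579) and Cnn1 (chr9:22099216-22109630) are on the plus strand. Acta2 (chr19:34241090-34255590), Actg2 (chr6:83512905-83536265), Myh11 (chr16:14194535-14291372), Tagln (chr9:45929619-45936058), Smtn (chr11:3517523-3540612), Synpo2 (chr3:123076519-123236149) and Myocd (chr11:65176561-65269989) are on the minus strand. All are protein coding, and the values are sums over whole genes. The actins are the members most like other genes in sequence: 1.39% of the 31-base words of Acta2 transcripts and 1.21% of those of Actg2 also occur in transcripts of another gene, and no member had a higher share.

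Most of the members moved together from library to library, as described below, so the bases before the start sites of this family were searched for the element they are known for. RefSeq windows on GRCm38.p6 were held for 6 of the 10 members (Acta2, Cnn1, Des, Lmod1, Smtn and Synpo2) and for 43 of the 53 other contraction genes described below. The CArG box was searched on both strands as 2 C, then 6 bases that are each A or T, then 2 G, and again with 1 of the 6 central bases allowed to differ, so that the relaxed form includes the exact one. In the 250 bases before the start, the exact form occurred in 1.47% of 32851 windows and the relaxed form in 8.59%. Some genes have several windows, and counted by gene, with a match in any window, these shares were 1.62% and 9.78% of 27025 genes. None of the 6 members had the exact form, which says only that these letters are not in these windows, and Acta2 alone had the relaxed form. Acta2 is shown from chr19:34255374-34255623 on the minus strand, with the matches at 84 and 34 bases before the RefSeq start in capitals. Most of this window, with both matches, lies inside the longer GENCODE gene. The Smtn window (chr11:3539293-3539542) lies wholly inside the GENCODE gene, so it is not upstream of that gene's start. Of the other contraction genes, 11 of the 43 had the relaxed form and 6 the exact one in at least 1 window. Among the latter, Srf (chr17:46556200-46556259, minus strand) encodes the box-binding factor itself and held 2, Myl9 (chr2:156775288-156775389, plus strand) encodes the regulatory light chain and held 1 exact and 1 relaxed match, and Vcl (chr14:20929156-20929195, plus strand) encodes vinculin and held 1. These stretches are given so that the forms can be compared.
Acta2: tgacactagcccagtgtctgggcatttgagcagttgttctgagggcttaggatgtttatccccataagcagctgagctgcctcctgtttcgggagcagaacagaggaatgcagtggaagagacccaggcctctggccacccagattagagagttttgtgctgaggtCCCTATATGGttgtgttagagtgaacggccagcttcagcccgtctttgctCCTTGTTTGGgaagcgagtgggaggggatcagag
Srf: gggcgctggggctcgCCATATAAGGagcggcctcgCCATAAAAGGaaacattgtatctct
Myl9: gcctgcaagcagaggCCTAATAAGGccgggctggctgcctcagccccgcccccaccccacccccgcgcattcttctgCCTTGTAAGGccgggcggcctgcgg
Vcl: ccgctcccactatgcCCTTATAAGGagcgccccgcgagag

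Libraries are called by the numbers in the column headers: the WT-TRAMP libraries were 1 to 3 at 10 weeks and 10 to 12 at 30 weeks, those of KO-TRAMP 7 to 9 and 16 to 18, and those of A537T-TRAMP 4 to 6 and 13 to 15. The total per library lay between 9380174 and 14830104 reads. Elac2 did not pass the test in any of the 4 comparisons (limma, adjusted p between 0.808 and 0.961 except 0.522 in KO-TRAMP at 30 weeks), with normalized counts of 301, 263 and 254 in KO-TRAMP against 359, 289 and 307 in WT-TRAMP at 10 weeks, so a whole-gene value does not check these labels. Epithelial markers were present throughout, with Epcam between 3064 and 8051 normalized counts, but not evenly. In A537T-TRAMP at 10 weeks the luminal list held 0.280%, 0.135% and 0.219% of the normalized counts in libraries 4, 5 and 6. WT-TRAMP held 0.254% to 0.275% there. Genes of the seminal vesicle, a gland that the dissection removed per the labels, took very unequal shares. The 8 genes of that list held 9.05% of all normalized counts in library 5, 5.45% in library 13, 4.35% in library 10, 2.65% in library 15, between 1% and 2% in libraries 6, 9 and 12, and 0.266% or less in the other 11. Libraries 17 and 18 stood apart by a neuroendocrine list, at 0.130% and 0.0808% of the normalized counts, against at most 0.00851% in the other 16.

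Per kilobase of exon, the normalized counts of the members spanned a wide range. In WT-TRAMP at 10 weeks, in the table shared with KO-TRAMP, Acta2 had the highest level at 629.8 ± 131.5 per kilobase (SD, n = 3), followed by Tagln at 495 ± 55.4, Myh11 at 377 ± 104, Cnn1 at 123 ± 54.5 and Des at 106 ± 54.9. Actg2 at 66.3 ± 17.4, Smtn at 50.7 ± 6.0, Synpo2 at 25.2 ± 10.5 and Lmod1 at 22.2 ± 7.6 came next, and Myocd was lowest at 4.1 ± 1.1 per kilobase. Neighbours from Acta2 to Myh11, from Cnn1 to Des, from Actg2 to Smtn and from Synpo2 to Lmod1 lay within 1 SD of one another or nearly so, as did Des and Actg2, and the gaps from Myh11 to Cnn1, from Smtn to Synpo2 and from Lmod1 to Myocd were wider than the SDs. At 30 weeks, in the KO-TRAMP table, the WT-TRAMP order began with Acta2 at 1765 ± 383 per kilobase, Myh11 at 1377 ± 400 and Tagln at 1217 ± 197, and again ended with Myocd at 21.7 ± 10.5. In KO-TRAMP at 30 weeks, Actg2 came next after Tagln, Acta2 and Myh11, at 1120 ± 891 per kilobase, and the SD there covered most of the mean.

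At 10 weeks the members were higher in KO-TRAMP than in WT-TRAMP, with positive log2 fold changes for all 10 and a median of 0.93, but none passed the test across all genes. Acta2, the main vascular and glandular smooth muscle actin, had normalized counts of 1979, 2335 and 2766 in KO-TRAMP libraries 7, 8 and 9 and of 1092, 1669.7 and 1387 in WT-TRAMP libraries 1, 2 and 3. All KO-TRAMP values lay above all WT-TRAMP values, with a log2 fold change of 0.78 ± 0.18 (SE). Actg2, the actin typical of the gut and the urogenital tract, had 174, 279 and 378 against 72.6, 124 and 113. Again the groups did not overlap, and the log2 fold change was 1.38 ± 0.31, the largest of the 10. Tagln, the actin-bundling transgelin, had 1329.7, 1673 and 1595 against 860, 1066 and 1029, without overlap and with a log2 fold change of 0.64 ± 0.13. Myocd had 36.0, 91.1 and 78.1 in KO-TRAMP and 21.9, 22.5 and 34.1 in WT-TRAMP. Its groups did not overlap either, although library 7 stood only just above library 3, and the log2 fold change was 1.28 ± 0.39. Lmod1, the filament-nucleating leiomodin, and Synpo2, an actin-bundling protein of the dense bodies, also had no overlap, with log2 fold changes of 1.04 ± 0.29 and 1.05 ± 0.34. Cnn1 (calponin), Myh11, Des and Smtn overlapped between the lines, with log2 fold changes of 1.08 ± 0.33, 0.81 ± 0.29, 0.80 ± 0.35 and 0.40 ± 0.28. Library 7 had the lowest KO-TRAMP value for each of these 4, as for every other member. Smtn and Des rested on single libraries most: the log2 fold change of Smtn was 0.05 without library 8, and that of Des 0.39 without library 1.

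In limma's test, 0 of the 10 members reached an adjusted p under 0.05 in KO-TRAMP at 10 weeks, where 0.0129% of the 15451 genes tested did, and the smallest adjusted p among them was 0.574, for Tagln. At an unadjusted p under 0.05, 8 of 10 were higher in KO-TRAMP, against 3.71% of all genes, and 6 of 10 had no overlap with KO-TRAMP higher, against 5.77%. The median log2 fold change of all genes was -0.01. DESeq2 on the recovered reads, the tool the authors used, gave 3 of 10 members an adjusted p under 0.05 (Tagln, Acta2 and Actg2, all higher, adjusted p between 0.00619 and 0.0142), against 0.524% of all genes, and edgeR's quasi-likelihood test gave 0.

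In A537T-TRAMP at 10 weeks all 10 members had every mutant library above every WT-TRAMP library. The members' median log2 fold change was 1.60, and 0.92 without libraries 5 and 6, which leaves 1 mutant library. The difference between the mutant lines was not tested. Acta2 had 2558, 5516 and 2614 normalized counts in libraries 4, 5 and 6 against 960, 1470.4 and 1215 in WT-TRAMP. The lowest mutant library was well clear of the highest control, and the log2 fold change was 1.47 ± 0.32. Actg2 had 255, 1347 and 469 against 64.3, 109 and 100, a log2 fold change of 2.60 ± 0.56. Myocd had 74.1, 264 and 92.9 against 17.7, 18.4 and 26.3, a log2 fold change of 2.52 ± 0.49. For all 3 genes library 5 was far above libraries 4 and 6, which lay much nearer to each other for Acta2 and Myocd. Cnn1 had 685, 2225 and 1032 against 182, 441 and 269, a log2 fold change of 2.06 ± 0.47. Myh11 had 4239, 13814 and 7956 against 1750.4, 3049 and 2885, a log2 fold change of 1.64 ± 0.42. In both genes library 5 was again highest and library 4 lowest among the mutants. The log2 fold changes of the other 5 members lay between 1.2 ± 0.24 for Tagln and 1.88 ± 0.57 for Synpo2, with 1.25 ± 0.37 for Smtn, 1.41 ± 0.38 for Lmod1 and 1.55 ± 0.43 for Des.

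By limma, 0 of the 10 members had an adjusted p under 0.05 in this comparison, as had 0.00648% of 15438 genes, and the adjusted p of each was 0.6. All 10 had an unadjusted p under 0.05 with A537T-TRAMP higher (between 0.00114 and 0.0124), against 5.07% of all genes, and 10 of 10 had no overlap in that direction, against 6.92%. The median log2 fold change of all genes was -0.01 here too. DESeq2 on the recovered reads gave 9 of 10 an adjusted p under 0.05, all but Lmod1 and all higher, with adjusted p between 9.8e-05 and 0.0433, against 0.959% of all genes, while edgeR's quasi-likelihood test gave 0. Both lines were set against the same 3 WT-TRAMP mice at this age, so the higher values in 1 line are not independent of those in the other.

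**Figure D1:**
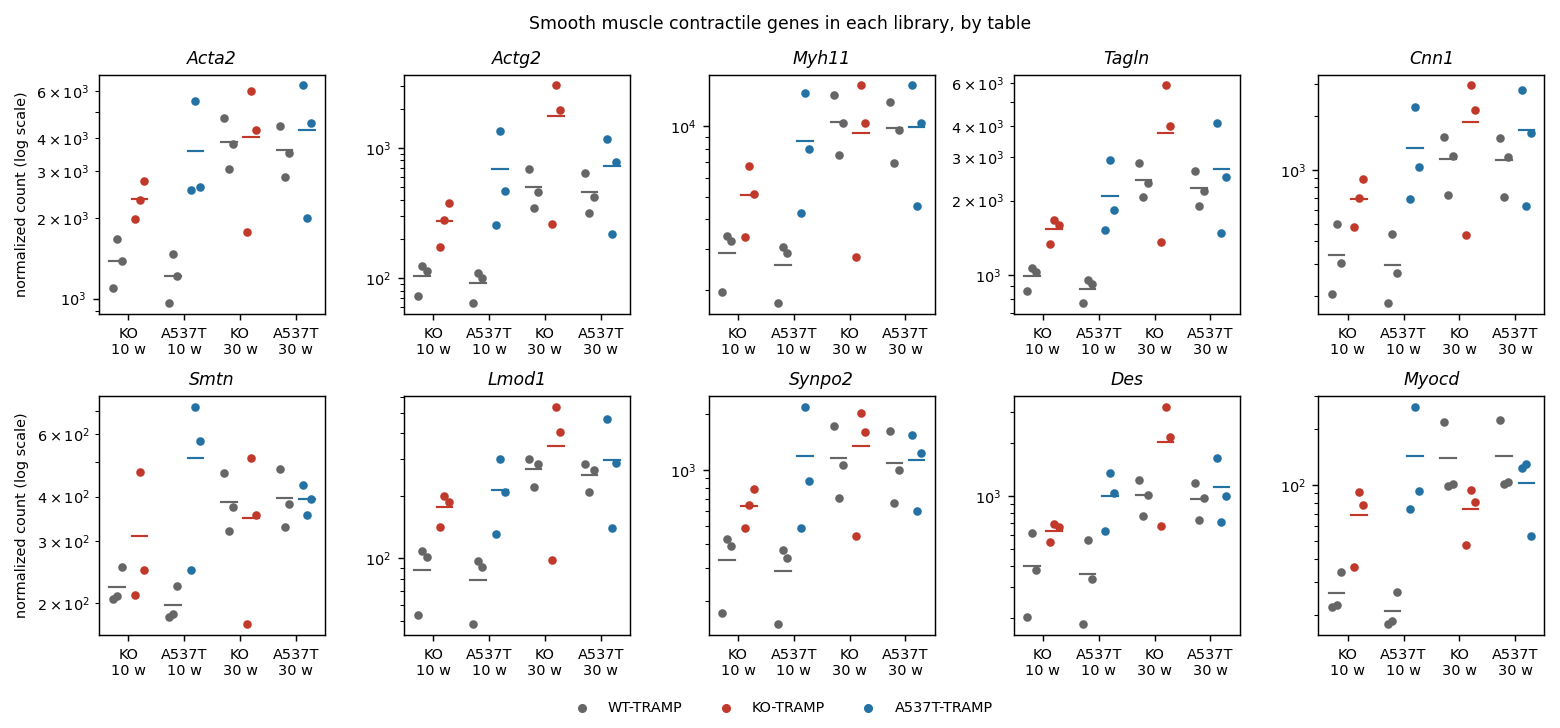
Normalized counts on a log scale for the 10 members, 1 panel per gene, with 1 point per library and a bar at the group mean. Each pair of columns is 1 table, with the mutant line on the right in colour and WT-TRAMP in grey, and the same WT-TRAMP mice appear in both tables of an age. At 10 weeks the A537T-TRAMP points lie above all grey ones in every panel and the KO-TRAMP points in 6 of 10, with overlap for Cnn1, Myh11, Des and Smtn. At 30 weeks the coloured points spread on both sides of the grey ones in most panels. For Myocd all KO-TRAMP points lie below them, and for Smtn the A537T-TRAMP points lie among them.

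At 30 weeks the KO-TRAMP libraries spread on both sides of WT-TRAMP, and the members' median log2 fold change was 0.05. Library 16 was below the lowest WT-TRAMP library for 10 of 10 members. Library 17 was above the highest for 9 of 10 and library 18 for 5 of 10. The share of all genes outside the WT-TRAMP range in each of these libraries was not counted, and most members moved together. Acta2 had 1781, 6013 and 4275 normalized counts in libraries 16, 17 and 18, against 4750.2, 3072 and 3805 in WT-TRAMP libraries 10, 11 and 12. The control values fell inside the KO-TRAMP range, and the log2 fold change was -0.09 ± 0.45. Actg2 had 261, 3011 and 1959 against 690.4, 346 and 458. Libraries 17 and 18 were above every control and library 16 below, and the log2 fold change of 1.27 ± 0.91 had an SE nearly as large as itself. Des had 672, 3226 and 2161 against 1234, 762 and 1016, with the same arrangement and a log2 fold change of 0.76 ± 0.57. Tagln at 0.41 ± 0.53, Cnn1 at 0.35 ± 0.74, Lmod1 at 0.06 ± 0.62, Synpo2 at 0.05 ± 0.62, Smtn at -0.27 ± 0.40 and Myh11 at -0.44 ± 0.63 had SEs near or above their values.

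Myocd was the exception among the members in KO-TRAMP at 30 weeks. Its normalized counts were 47.3, 94.0 and 80.4 in libraries 16, 17 and 18 and 217, 98.8 and 101 in libraries 10, 11 and 12. All KO-TRAMP values were below all WT-TRAMP values, though library 17 was close to library 11, and the log2 fold change was -0.86 ± 0.41. The gap was therefore narrow for all but library 16, and library 10 set the mean of the controls. Myocd was the 1 of 10 members without overlap and with KO-TRAMP lower, against 9.48% of all genes, and 0 of 10 were without overlap and higher, against 10.8%. No member passed limma's test at 30 weeks in KO-TRAMP (smallest adjusted p 0.398, for Myocd, whose unadjusted p was 0.0801), where 0.213% of 16900 genes did. None had an unadjusted p under 0.05, against 7.7% of all genes with KO-TRAMP higher and 5.84% with KO-TRAMP lower. DESeq2 and edgeR on the recovered reads also gave 0 of 10, against 4.76% of all genes in DESeq2. Without library 16, limma gave 4 of 10 members an adjusted p under 0.05, all higher in KO-TRAMP (Des, Tagln, Lmod1 and Actg2), where 18.1% of all genes passed, so the count of 0 rested on that library. Without libraries 17 and 18, a choice made after the data were seen that leaves 1 KO-TRAMP library, the median log2 fold change of the members was -1.21.

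In A537T-TRAMP at 30 weeks the libraries again spread on both sides of the controls for most members. Every Smtn value fell inside the WT-TRAMP range, and no value of Synpo2 or Myocd exceeded the highest control. Acta2 had 6293, 1996 and 4537 normalized counts in libraries 13, 14 and 15 against 4431, 2844 and 3523 in WT-TRAMP. Library 13 was above and library 14 below every control, and the log2 fold change was 0.12 ± 0.40. Actg2 had 1176, 217 and 773 against 643, 319 and 423, a log2 fold change of 0.39 ± 0.59. Myocd had 123, 130 and 52.8 against 223, 100.4 and 103. Library 15, which was above the highest control for 4 of the members, was the lowest for Myocd, and the log2 fold change was -0.48 ± 0.44. Library 13 exceeded the highest WT-TRAMP library for 7 of 10 members, library 15 for 4, and library 14 was below the lowest for 8. For these libraries too, the share of all genes outside the WT-TRAMP range was not counted. The members' median log2 fold change was 0.10, and all 10 members overlapped between the groups. Of all genes, 7.36% were without overlap and higher and 6.03% without overlap and lower. In limma, 0 of 10 had an adjusted p under 0.05 (smallest 0.829), as had 0.0% of 16261 genes. None had an unadjusted p under 0.05, against 3.98% of all genes with A537T-TRAMP higher and 3.23% lower. DESeq2 gave 0 of 10, against 1.01% of all genes, and edgeR 0.

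**Figure D2:**
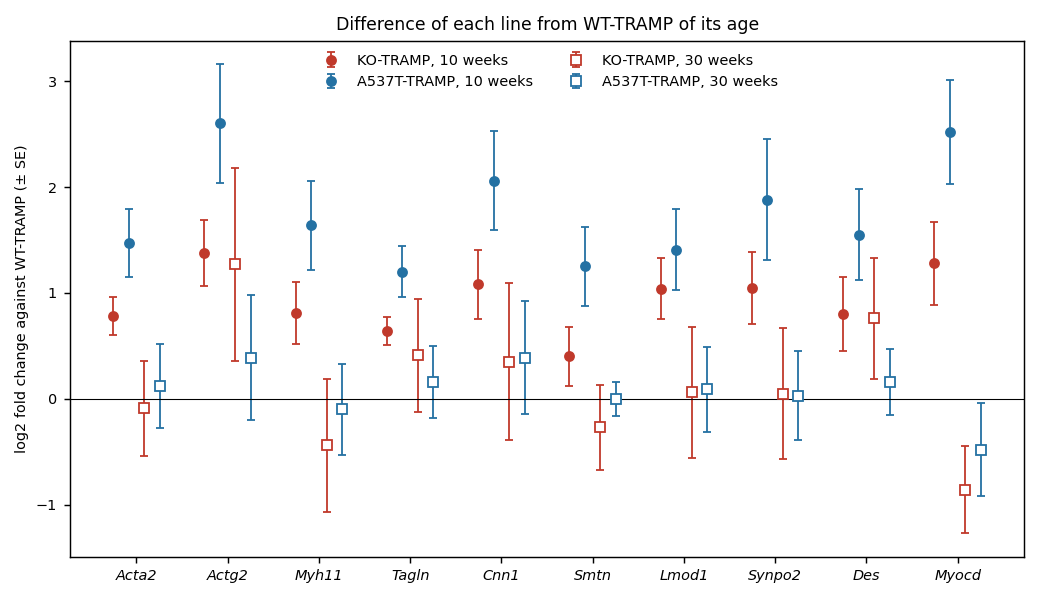
Log2 fold change of each member against WT-TRAMP of its age, with bars of 1 SE from limma, for KO-TRAMP in red and A537T-TRAMP in blue at 10 weeks (filled circles) and 30 weeks (open squares). At 10 weeks all 20 values lie above 0, from 0.40 to 2.60, and at 30 weeks they lie between -0.86 and 1.27 with wider bars for KO-TRAMP.

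Whether the effect of a line changed between the ages was tested directly as an interaction. In KO-TRAMP the effect at 30 weeks was below that at 10 weeks for all 10 members, with a median difference of -0.80 on the log2 scale. Myocd had the largest difference, -2.14 ± 0.60 (limma, unadjusted p = 0.00442, adjusted p = 0.258), and Des the smallest, -0.03 ± 0.73. Mean normalized counts of Myocd at 10 and 30 weeks were 68.4 and 73.9 in KO-TRAMP and 26.2 and 139.1 in WT-TRAMP. The 2 ages were scaled in separate tables. Myocd was the 1 member with an unadjusted p under 0.05, against 6.76% of all genes in that direction, and 0 of 10 passed after adjustment, as did 0.0% of 16431 genes. In A537T-TRAMP the median difference was -1.53, and Myocd again had the largest, -3.00 ± 0.71 (limma, unadjusted p = 0.00135, adjusted p = 0.721). Actg2 followed at -2.21 ± 0.92 and Synpo2 at -1.84 ± 0.79. In that line 8 of 10 members had an unadjusted p under 0.05 with the effect lower at 30 weeks, against 3.7% of all genes, and 0 of 10 passed after adjustment, as did 0.0% of 15941 genes.

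Within a library and table, the ratio of the reads of 2 genes does not depend on the factor that scaled the library. It shows whether the members moved in proportion. The ratio did depend on the table, because the recovered reads of a WT-TRAMP library differed between the 2 tables of an age. In library 10, Myocd had 45.7 reads per 1000 reads of Acta2 in the KO-TRAMP table and 50.4 in the A537T-TRAMP table. These ratios were chosen after the values were seen and are given without a test, and an exact permutation test of 3 against 3 could not go below 0.1. Actg2 had 6.65, 7.41 and 8.17 reads per 100 reads of Acta2 in WT-TRAMP at 10 weeks and 8.81, 12.0 and 13.7 in KO-TRAMP. In A537T-TRAMP it had 9.96, 24.4 and 17.9, so both lines were above every control. At 30 weeks it had 14.5, 11.3 and 12.0 in WT-TRAMP against 14.7, 50.1 and 45.8 in KO-TRAMP. Library 16 was level with the highest control, and libraries 17 and 18 were far above it. In A537T-TRAMP at 30 weeks the values were 18.7, 10.9 and 17, which overlapped with the controls. Libraries 5 and 17 had the highest ratios of their ages.

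Des per 100 reads of Acta2 separated KO-TRAMP at 30 weeks from its controls, with 37.7, 53.6 and 50.5 against 26.0, 24.8 and 26.7, and overlapped in the other 3 comparisons. Library 16, the one with low levels of every member, was above the controls here too. Myocd had 45.7, 32.2 and 26.7 reads per 1000 reads of Acta2 in WT-TRAMP at 30 weeks and 26.6, 15.6 and 18.8 in KO-TRAMP. The KO-TRAMP values were lower, but that of library 16 rested on 46 reads of Myocd and that of library 12 on 89, so these libraries did not differ beyond counting error. At 10 weeks KO-TRAMP had 18.2, 39.0 and 28.2 against 20.0, 13.5 and 24.6, and A537T-TRAMP 29.0, 47.9 and 35.5 against 18.4, 12.5 and 21.6. KO-TRAMP overlapped with the controls and A537T-TRAMP did not. The ratio in A537T-TRAMP at 30 weeks ran from 11.6 in library 15 through 19.5 in library 13 to 65.1 in library 14, so it was highest where the other members were lowest. Myh11 per 100 reads of Acta2 was 155 in library 16 and between 227 and 287 in the other 8 libraries of that age.

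**Figure D3:**
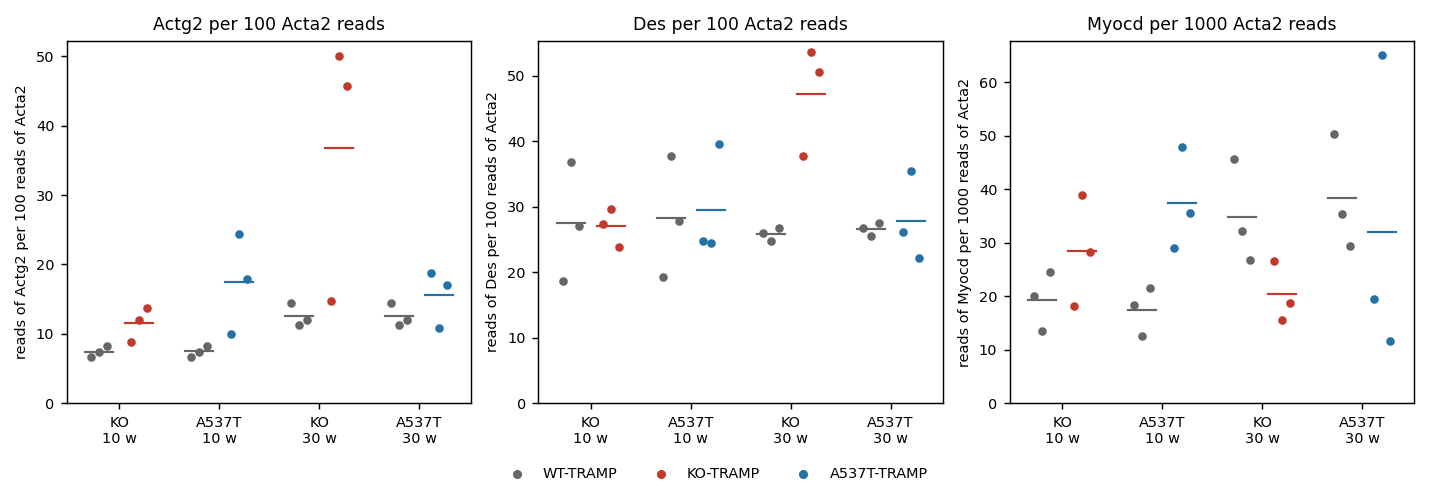
Reads of Actg2 and Des per 100 reads of Acta2, and of Myocd per 1000 reads of Acta2, in each library, with a bar at the group mean and WT-TRAMP in grey beside the line of the same table. Libraries 17 and 18 of KO-TRAMP stand apart at 50.1 and 45.8 for Actg2, and KO-TRAMP at 30 weeks lies above its controls for Des. For Myocd libraries 17 and 18 lie below the controls, while library 16 at 26.6 is level with library 12 at 26.7.

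Markers of other tissues also differed between libraries, some of them between the groups, and their part in the results was not tested. At 10 weeks the seminal vesicle list held between 0.000183% and 0.000459% of the normalized counts in WT-TRAMP, from 0.000906% to 1.63% in KO-TRAMP and from 0.0487% to 9.05% in A537T-TRAMP. Svs3a was at 0 in all 3 WT-TRAMP libraries, and Svs2, the most abundant gene of the list, was at most 8.8 normalized counts there and 698197 in library 5. In the KO-TRAMP table the members held 0.0423%, 0.0694% and 0.0615% in libraries 1, 2 and 3, and those of A537T-TRAMP libraries 4, 5 and 6 held 0.105%, 0.240% and 0.154%. In KO-TRAMP itself they held 0.0794%, 0.122% and 0.115% in libraries 7, 8 and 9. Library 7, with 0.000906% seminal vesicle, was above the highest control for 6 of 10 members, and library 4, with 0.0487%, for 10 of 10. The share of all genes above the highest control in either library was not counted. Without library 9, the 1 library of that comparison over 1% seminal vesicle, the median log2 fold change of the members in KO-TRAMP was 0.83, and without libraries 5 and 6 that in A537T-TRAMP was 0.92, with 1 mutant library left. The skeletal muscle list overlapped between the lines at 10 weeks, at between 0.00218% and 0.0171% in WT-TRAMP and between 0.0034% and 0.0204% in KO-TRAMP. The urothelial list held 0.0119% to 0.0185% in WT-TRAMP and 0.0197% to 0.0250% in KO-TRAMP at that age, with Upk3a at 0 in both groups. In A537T-TRAMP the urothelial list overlapped with WT-TRAMP, at 0.0129% to 0.028% against 0.0118% to 0.0182%. The shares of stromal and vascular lists were also without overlap and higher in A537T-TRAMP at 10 weeks. The fibroblast list held 0.0472% to 0.0608% against 0.026% to 0.0405% in WT-TRAMP, the endothelial list 0.00234% to 0.00521% against 0.00157% to 0.00189%, and the pericyte list 0.00678% to 0.00923% against 0.00521% to 0.00676%, the last by a narrow margin. Summed as normalized counts, the pericyte list did overlap, with a lowest A537T-TRAMP sum of 699.1 and a highest WT-TRAMP sum of 710.9. Notch3 of that list lay between 263 and 287 in A537T-TRAMP and between 229 and 446 in WT-TRAMP. In KO-TRAMP at 10 weeks the shares of these 3 lists overlapped with WT-TRAMP.

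At 30 weeks the order of the members within WT-TRAMP (0.239%, 0.135% and 0.181% in libraries 10, 11 and 12) and within A537T-TRAMP (0.291%, 0.0944% and 0.206% in libraries 13, 14 and 15) was that of the seminal vesicle list, which held 4.35%, 0.000106% and 1.90%, and 5.45%, 0.000313% and 2.65%. In KO-TRAMP it was not. Library 16 held 0.266% seminal vesicle and 0.0695% members, library 17 held 0.000695% and 0.362%, and library 18 held 0.106% and 0.251%. Libraries 17 and 18 instead had the highest shares of the pericyte, endothelial, basal and urothelial lists at this age. Their pericyte lists held 0.0336% and 0.0238%, where Rgs5 reached 1886 normalized counts against at most 289 in WT-TRAMP. Not every pericyte marker was higher: Notch3 lay between 205.5 and 246.5 in KO-TRAMP and between 208.3 and 248.5 in WT-TRAMP. The endothelial lists of libraries 17 and 18 held 0.0319% and 0.0216% against at most 0.00496% in WT-TRAMP, and their basal lists 0.0215% and 0.0150% against at most 0.0034%. Their urothelial lists held 0.0374% and 0.0263% against at most 0.02% in WT-TRAMP, and that of library 16 held 0.0151%. Upk1b of that list overlapped, at 1384 to 1723 normalized counts in KO-TRAMP and 1516 to 1831 in WT-TRAMP. The fibroblast list was high in all 3 KO-TRAMP libraries, between 0.158% and 0.195% against 0.0368% to 0.0423% in WT-TRAMP, and library 16, lowest in the contractile genes, was the highest of them. In A537T-TRAMP at 30 weeks this list was also above every control, at 0.0588% to 0.0979% against 0.0375% to 0.0431%. The adipose list was lower in A537T-TRAMP, at 0.00024% to 0.000926%, than in WT-TRAMP, at 0.00357% to 0.0112%.

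**Figure D4:**
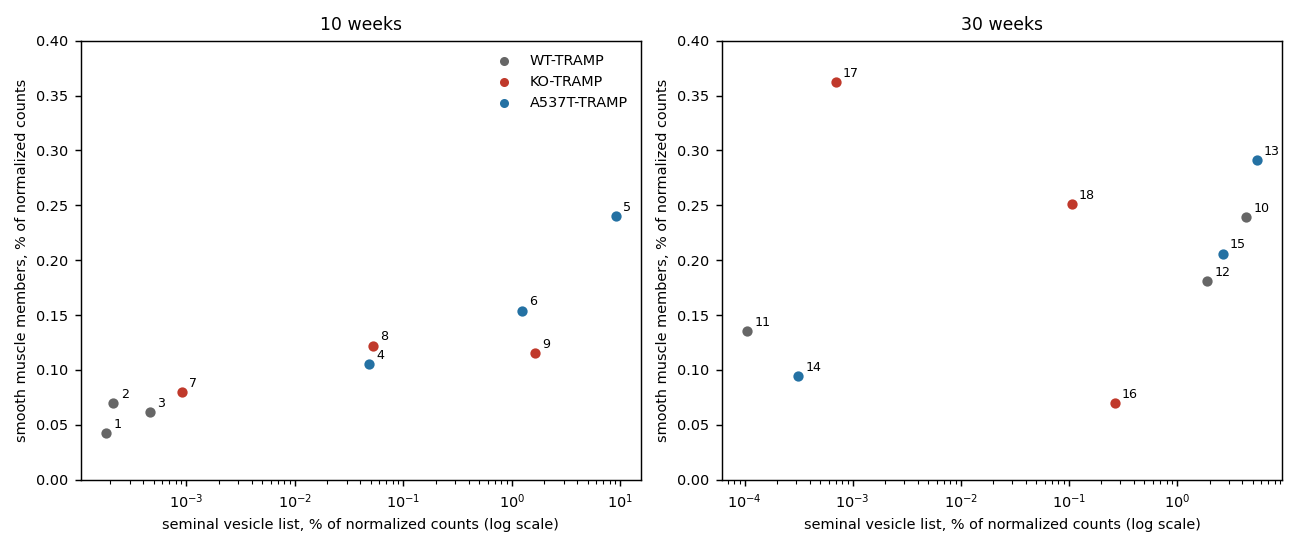
Share of the normalized counts held by the 10 members (linear axis) against the share held by the 8 seminal vesicle genes (log axis), 1 point per library, labelled by library number, at 10 weeks on the left and 30 weeks on the right. Libraries 1 to 3 lie at the lower left at 10 weeks, library 5 at the upper right with 9.05% and 0.240%, and at 30 weeks library 17 stands at the upper left with 0.000695% and 0.362%.

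A list of 53 other genes of contraction, grouped by role, was read the same way. In KO-TRAMP at 10 weeks 47 were tested, 0 had an adjusted p under 0.05 in limma, and 16 had an unadjusted p under 0.05, all higher, against 3.71% of all genes, while 0 were lower, against 2.93%. The median log2 fold change was 0.27, below that of the members. The attachment group, which anchors filaments and membranes, held the smallest p among those higher. Jph2, which couples the plasma membrane to calcium stores, had 102, 149 and 137 normalized counts against 39.3, 48.7 and 69.4. Its groups did not overlap, with a log2 fold change of 1.30 ± 0.26. Pgm5, a protein of adhesion sites, had a log2 fold change of 0.94 ± 0.26. The lowest p in the other direction belonged to the cGMP phosphodiesterase Pde5a at -0.31 ± 0.16, the phosphatase subunit Ppp1cb at -0.16 ± 0.09 and the small GTPase Rhoa at -0.09 ± 0.09.

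In A537T-TRAMP at 10 weeks 48 of the 53 were tested, 0 passed the adjusted threshold in limma, 17 were higher at an unadjusted p under 0.05, against 5.07% of all genes, and 1 was lower, against 2.82%. Jph2 was again first, at 1.92 ± 0.36, with 119, 289 and 186 normalized counts against 37.8, 46.1 and 64.6. Myl9, whose promoter is shown above, had 691, 1573 and 853 against 303, 469.8 and 352, a log2 fold change of 1.4 ± 0.32. Tpm2, a tropomyosin of the thin filament, had a log2 fold change of 1.79 ± 0.43. In all 3 genes the groups did not overlap and library 5 was highest. Ppp1cb was the 1 lower gene, at -0.38 ± 0.11, and Rhoa and the SRF cofactor Mrtfb followed at -0.15 ± 0.11 and -0.13 ± 0.15. By role, the median log2 fold change in this comparison was 1.09 for the 14 attachment genes, 0.85 for 4 receptors, 0.68 for 7 thin filament genes, 0.67 for 10 genes of calcium and cGMP handling, 0.34 for 10 genes of the light chain, its kinase and its phosphatase, and 0.20 for SRF and its 2 cofactors. In KO-TRAMP the attachment genes were also first, at 0.73, and SRF and its cofactors last, at 0.09. Myocd, the other coactivator of SRF, stood at 1.28 and 2.52 in the same comparisons.

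At 30 weeks 50 of the 53 genes were tested in each line and 0 had an adjusted p under 0.05 in limma. In KO-TRAMP 4 were higher and 4 lower at an unadjusted p under 0.05, against 7.7% and 5.84% of all genes, and the median log2 fold change was 0.05. Ednrb, the endothelin B receptor, had 54.5, 118 and 88.8 normalized counts against 7.8, 9.6 and 14.8. The groups were far apart, with a log2 fold change of 2.88 ± 0.42 (limma, adjusted p = 0.0809). Adra1a, the alpha 1A adrenergic receptor through which noradrenaline contracts prostatic muscle, had 430, 147 and 236 against 506, 718 and 594, without overlap and with a log2 fold change of -1.28 ± 0.39. Tpm4, a tropomyosin of non-muscle filaments, and the kinase Rock1 were higher at 0.86 ± 0.19 and 0.30 ± 0.11. The calcium channel Itpr1 was lower at -0.68 ± 0.21. In A537T-TRAMP 3 were higher and 1 lower at an unadjusted p under 0.05, against 3.98% and 3.23%, with a median of 0.06. Tpm4 at 0.40 ± 0.10, Ednrb at 1.24 ± 0.42 and the essential light chain Myl6 at 0.27 ± 0.10 had the smallest p among those higher. Svil at -0.18 ± 0.10 and Mrtfa at -0.46 ± 0.33 were among those lower, with an unadjusted p of 0.12 and 0.204.

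**Figure D5:**
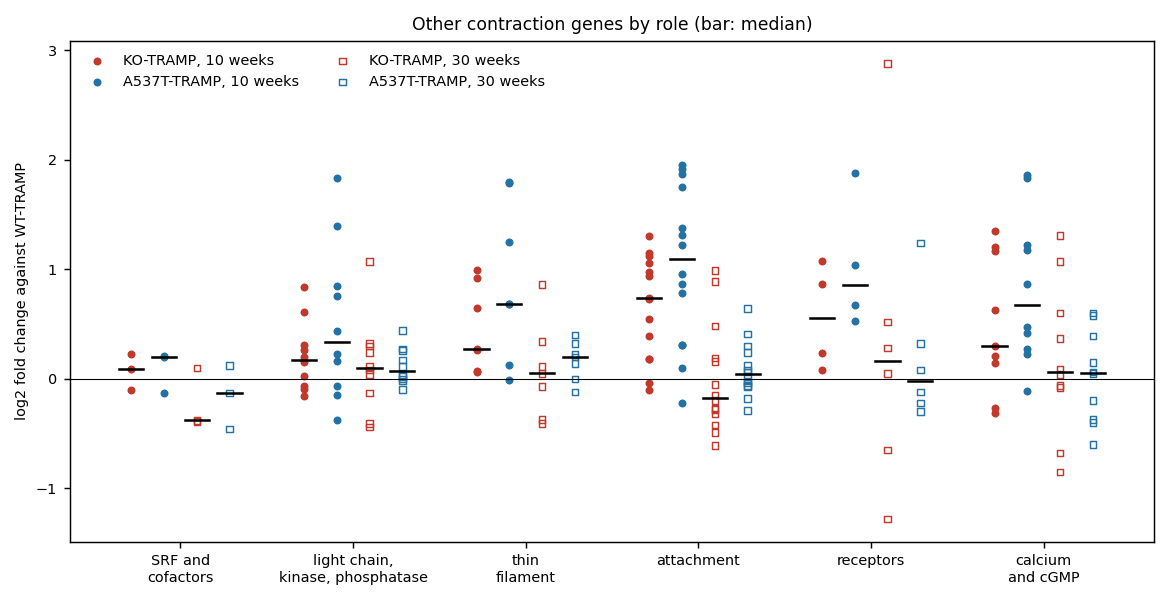
Log2 fold change against WT-TRAMP for the tested genes of the list of 53, 1 point per gene, by role, for KO-TRAMP in red and A537T-TRAMP in blue at 10 weeks (filled) and 30 weeks (open), with a black bar at the median. The attachment genes have the highest medians at 10 weeks, 0.73 and 1.09, and Ednrb is the highest point of KO-TRAMP at 30 weeks at 2.88.

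The members followed one another closely. Pearson's r between the log2 value of a member and the mean log2 value of the other 9, taken over the 6 libraries of a table and averaged over the 4 tables, was above 0.9 for 8 of the 10, from 0.922 for Des to 0.974 for Tagln. Smtn reached 0.823. Myocd had the lowest average, 0.593, made of 0.880 and 0.960 at 10 weeks and of 0.479 in the KO-TRAMP table and 0.052 in the A537T-TRAMP table at 30 weeks. Among 11393 other genes with a mean of at least 50 in every table, the 10 with the highest average r to the mean of the members were Cav1 (0.981), Myl9 (0.975), Tpm2 (0.974), Jph2 (0.972), Synm (0.970), Mylk (0.965), Csrp1 (0.963), Pgm5 (0.958), Flnc (0.957) and Cavin2 (0.950). Of these, 7 were on the list of 53. The median over all 11393 genes was -0.071. These values are descriptions: the points share libraries, the WT-TRAMP mice occur in 2 tables each, and a library rich in muscle raises all such genes at once.

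In WT-TRAMP itself, each member had a higher share of the reads in every 30-week library than in every 10-week library, which held for 20.6% of the 15252 genes compared. The 2 ages were scaled in separate tables, so RPM, each library's reads scaled to a common total, were used and no test was made. Acta2 had a median of 118 RPM at 10 weeks and 328 at 30 weeks. Myocd had the largest ratio of means, 5.37, with at most 2.91 RPM at 10 weeks and at least 8.42 at 30 weeks. Smtn had the smallest, 1.76, with medians of 17.9 and 32.2. The 30-week library with almost no seminal vesicle RNA, library 11, was lower than libraries 10 and 12 for all 10 members and above all 10-week controls. The part of other tissues in the difference between the ages was not tested.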

How the data were processed

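Total RNA was sequenced (Illumina TruSeq, NovaSeq). The authors trimmed reads with Trim Galore 0.4.1 and cutadapt 1.18, aligned them with STAR 2.7.3a to GRCm38 masked for nuclear copies of mitochondrial DNA, quantified genes with Salmon on GENCODE using strand and sequence and GC bias models, and imported the estimates for DESeq2 1.26. The authors deposited 4 tables of normalized counts, a signal equal to an estimated count divided by 1 size factor per library and table. Within 0.01, 100% of the values of a library were multiples of the value of 1 read, so reads could be recovered. Another 4 deposited tables hold the authors' shrunken fold changes, posterior SDs and s-values, and were left out. There were 0 columns from other series.

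Headers give only a library number. Columns occurring in both tables of an age were taken as WT-TRAMP, and the others as the line that the table is named for. The labels number the mice but the headers do not, so a library is not tied to a mouse. The mice were separate animals. The recovered reads of a WT-TRAMP library were the same in both tables of an age for 30.9% to 37.6% of genes, so its values are given per table. Gene symbols matched 55107 of 55469 IDs.

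Each line was compared with WT-TRAMP within its table by limma 3.58.1 (lmFit, eBayes with trend, R 4.3.3) on log2(normalized count + 1), for genes with a mean of at least 10, two-sided, Benjamini-Hochberg, threshold 0.05. This scale understates the change of low genes. The interaction used 12 libraries with an intercept per table. limma was used because the files are normalized values, and the count tests, edgeR 4.0.16 and DESeq2 1.42.0, were run on recovered reads as alternatives, beside other pseudocounts, filters, scalings, array weights and libraries left out. The test was also run on simulated counts in which genes varied independently. The members varied together, so that run does not check calls on them. Lengths and positions came from an earlier GENCODE release than the authors used.

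The members and lists were chosen with earlier results of these data known. Named were all 10 members, the 3 other contraction genes with the smallest p per comparison and direction, markers among the 2 most abundant of their list, and the 10 genes most like the members. A gene that this rule names is not reported here. Elac2, Svs3a, Upk3a, Vcl and Srf were named besides these, after their values or sequences were seen.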

Additional observations from a re-analysis of the deposited data

Results flagged for a closer look

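The effect of KO-TRAMP on Myocd, the coactivator of the contractile genes, had opposite directions at the 2 ages, with all 3 libraries of 1 group on 1 side. Its mean normalized counts at 10 and 30 weeks were 68.4 and 73.9 in KO-TRAMP and 26.2 and 139.1 in WT-TRAMP. The ages were scaled in separate tables, and library 10 set the WT-TRAMP mean at 30 weeks, with 217 against 98.8 and 101 in libraries 11 and 12. Whether KO-TRAMP or WT-TRAMP changed with age was not tested. At 10 weeks every KO-TRAMP library was above every WT-TRAMP library, with a log2 fold change of 1.28 ± 0.39. At 30 weeks every KO-TRAMP library was below every WT-TRAMP library, with a log2 fold change of -0.86 ± 0.41. Of all genes, 5.77% were without overlap and higher at 10 weeks and 9.48% without overlap and lower at 30 weeks. Both margins were narrow: the nearest KO-TRAMP and WT-TRAMP values were 36.0 and 34.1 at 10 weeks and 94.0 and 98.8 at 30 weeks. The difference between the ages was -2.14 ± 0.60 (limma interaction, unadjusted p = 0.00442) and did not pass after adjustment (adjusted p = 0.258). No other member met this in either line. Groups of 3 libraries were not tested for single outlying values.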

How the results depend on the processing

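All 319 member values recomputed for the 10-week comparisons kept their sign, but not their size: leaving out 1 library, the values in KO-TRAMP went down to 0.05 for Smtn, 0.39 for Des and 0.63 for Synpo2, and in A537T-TRAMP to 0.94 for Smtn and 1.95 for Actg2. The count of members past the threshold, 0 in limma in every comparison, became 3 (KO-TRAMP) and 9 (A537T-TRAMP) for the young mice with DESeq2. Array weights gave 7 in KO-TRAMP at 30 weeks, where 63.6% of all genes passed, and 1 and 3 for the age differences of KO-TRAMP and A537T-TRAMP, where 31.6% and 10.3% passed. These weights did not converge in any of the 30-week or age fits, and library 18 received a weight of 170 in KO-TRAMP at 30 weeks and of 1630 in its age fit, so both KO-TRAMP fits rest on that library, and no call is drawn from any of the unconverged fits. Of the other contraction genes, DESeq2 called 1 (KO-TRAMP) and 10 (A537T-TRAMP) for the young mice and 2 and 1 for the old ones, and the unconverged array weights 33 and 8 for the old ones. Leaving out 1 library gave 0 to 1 member (Smtn, without library 4) and 0 to 2 other contraction genes in A537T-TRAMP at 10 weeks, and 0 to 4 members and 0 to 11 others (without library 16) in KO-TRAMP at 30 weeks. The median of the members was 0.92 in A537T-TRAMP at 10 weeks without libraries 5 and 6, and -1.21 in KO-TRAMP at 30 weeks without libraries 17 and 18, an alternative chosen after seeing the data. A lone library left in a group was assumed to vary like the others. The cause was not tested, except that fewer samples entered where libraries were left out.

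At 30 weeks directions near 0 turned. In KO-TRAMP upper-quartile scaling gave -0.02 for Lmod1 and -0.03 for Synpo2, array weights 0.00 for Myh11 and 0.16 for Acta2, edgeR 0.06 and DESeq2 0.04 for Acta2, and leaving out libraries 10 and 12 gave 0.00 for Myh11 and 0.22 for Acta2. Without libraries 17 and 18 the values were -1.33 for Cnn1, -0.55 for Des, -0.82 for Tagln, -1.42 for Lmod1, -1.29 for Synpo2 and -0.87 for Actg2. In A537T-TRAMP Smtn was 0.00 with upper-quartile scaling and -0.01 with edgeR and DESeq2, and Myh11 was 0.09 with array weights, 0.02 with edgeR and 0.01 with DESeq2. Leaving out 1 library at a time, values in KO-TRAMP ran from -0.18 to 1.2 for Cnn1, -0.93 to 0.29 for Myh11, -0.62 to 0.16 for Smtn, -0.04 to 1.02 for Tagln, -0.47 to 0.41 for Acta2, -0.41 to 0.80 for Lmod1 and -0.37 to 0.72 for Synpo2. In A537T-TRAMP they ran from -0.10 to 0.97 for Cnn1, -0.47 to 0.39 for Myh11, -0.12 to 0.15 for Smtn, -0.16 to 0.45 for Des, -0.21 to 0.53 for Tagln, -0.23 to 0.59 for Acta2, -0.32 to 0.55 for Lmod1, -0.28 to 0.43 for Synpo2 and -0.11 to 1.10 for Actg2.

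No paired analysis was possible because the columns carry no replicate numbers. Leaving out the libraries over 1% seminal vesicle in A537T-TRAMP at 30 weeks was not run, since it would leave 1 library a group. Myocd was not tested at a minimum mean of 50 in KO-TRAMP at 10 weeks, and its lowest control held 18 reads there, so its ratio was imprecise.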
